A study of Homo sapiens with 6 samples.

Results

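The genes that encode potassium, calcium and sodium channels were examined for association with the 82-kDa form of choline acetyltransferase (82-kDa ChAT) and with the chromatin organiser SATB1. All protein-coding genes of the GENCODE 44 annotation of hg38 were taken whose symbols begin with KCN, CACNA, HCN and a digit, or SCN followed by a number and A or B. This gave 128 channel genes of 20033 protein-coding genes on chromosomes 1 to 22, X and Y. They are 0.639% of the protein-coding genes but 1.52% of the summed length of protein-coding gene bodies, since the median channel gene was 66.1 kb long and the median protein-coding gene 27.5 kb.

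The cells were SH-SY5Y, a human neuroblastoma line with neuronal features, stably expressing 82-kDa ChAT and differentiated with retinoic acid for 3 days, with 3 plates per treatment. They received either vehicle (Ham's F-12 medium) or 100 nM oligomeric amyloid-β1–42 (Aβ) for 4 h, and chromatin was immunoprecipitated with an in-house antibody to the C-terminus of ChAT or with an antibody to SATB1. ChAT was therefore a stably expressed protein in every sample, and the C-terminus to which the antibody was raised is common to the forms of ChAT. Each of the 4 combinations of protein and treatment was 1 library, and 2 input samples, 1 per treatment, served both proteins. There was no replicate, so treatments and proteins were compared by description, and the intervals below cover the counting of peaks in 1 library only. Peak lists hold no expression values, so the identity of the cells could not be checked with marker genes.

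Voltage-gated channels are built around a pore-forming subunit that opens when the membrane depolarises, and in neurons sodium channels start the action potential, potassium channels end it and calcium channels couple it to transmitter release and gene expression. Other potassium channels pass current at rest (inward rectifiers and two-pore-domain channels) or open when calcium or sodium enters the cell. Auxiliary subunits bind the pores and set their number at the surface and their gating. Genes for pores with many exons are long, and their introns hold most of the sequence in which a peak can fall.

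The regions on which the results turn are shown first. In vehicle-treated cells 7 peaks of 82-kDa ChAT in channel genes overlapped a peak of SATB1. For 4 of them the stretch covered by either peak is printed below on the plus strand of hg38, with the bases held by both peaks in capitals. The regions are chr12:2611394-2611558 in intron 28 of CACNA1C, chr1:181776325-181776445 in CACNA1E, chr22:39582872-39583111 in intron 1 of CACNA1I and chr1:215077623-215077761 in KCNK2. The CACNA1E stretch meets a coding exon of a coding transcript that lies in intron 38 of the MANE Select transcript (the representative transcript chosen for each gene), and the KCNK2 stretch lies upstream of the MANE Select start.
CACNA1C (vehicle, 82-kDa ChAT and SATB1): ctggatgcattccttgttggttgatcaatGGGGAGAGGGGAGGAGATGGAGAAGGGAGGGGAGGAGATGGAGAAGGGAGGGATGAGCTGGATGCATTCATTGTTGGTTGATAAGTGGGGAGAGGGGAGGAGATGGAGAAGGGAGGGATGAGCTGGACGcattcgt
CACNA1E (vehicle, 82-kDa ChAT and SATB1): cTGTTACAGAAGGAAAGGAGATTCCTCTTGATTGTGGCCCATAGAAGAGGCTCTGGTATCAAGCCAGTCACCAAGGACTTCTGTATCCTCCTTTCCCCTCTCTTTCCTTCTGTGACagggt
CACNA1I (vehicle, 82-kDa ChAT and SATB1): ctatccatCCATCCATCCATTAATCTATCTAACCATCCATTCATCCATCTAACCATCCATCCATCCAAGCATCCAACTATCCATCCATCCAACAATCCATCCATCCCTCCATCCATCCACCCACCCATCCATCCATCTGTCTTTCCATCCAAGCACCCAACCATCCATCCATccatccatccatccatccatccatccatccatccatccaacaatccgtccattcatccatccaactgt
KCNK2 (vehicle, 82-kDa ChAT and SATB1): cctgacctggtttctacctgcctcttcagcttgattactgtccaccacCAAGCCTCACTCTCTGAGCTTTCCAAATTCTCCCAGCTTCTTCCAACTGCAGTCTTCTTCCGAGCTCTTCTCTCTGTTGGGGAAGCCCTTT

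A further region held by both proteins in vehicle-treated cells, in intron 9 of CACNA1C at chr12:2520072-2520715, was 644 nt long and consisted of a tandem repeat. At the best period, 51 nt, 98.8% of its bases equalled the base 51 nt further on. Its first 255 nt are printed with alternate copies in capitals. After it comes a 30-nt repeat in intron 3 (chr12:2255796-2256089), which had a peak of 82-kDa ChAT after vehicle and of no other list. Reads of the input in these repeats were not examined. The intron 3 array is known to vary in length between people. Both are on the plus strand.
CACNA1C intron 9, start of the region: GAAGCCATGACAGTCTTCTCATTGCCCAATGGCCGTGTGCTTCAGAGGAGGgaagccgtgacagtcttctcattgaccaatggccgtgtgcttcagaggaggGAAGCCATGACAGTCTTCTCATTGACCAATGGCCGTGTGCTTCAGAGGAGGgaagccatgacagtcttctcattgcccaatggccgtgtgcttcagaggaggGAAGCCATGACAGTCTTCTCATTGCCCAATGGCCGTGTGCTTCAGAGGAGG
CACNA1C intron 3: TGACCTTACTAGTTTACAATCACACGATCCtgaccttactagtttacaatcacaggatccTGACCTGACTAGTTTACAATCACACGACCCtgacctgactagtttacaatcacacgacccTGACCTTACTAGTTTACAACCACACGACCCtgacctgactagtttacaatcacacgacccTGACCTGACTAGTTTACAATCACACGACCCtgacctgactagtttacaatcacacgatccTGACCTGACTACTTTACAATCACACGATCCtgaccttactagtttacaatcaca

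Across treatments, 82-kDa ChAT was found at 1 channel region under both treatments, in intron 3 of KCNH1 at chr1:211092975-211093041, and 1 region of 82-kDa ChAT after vehicle was held by SATB1 after Aβ, in intron 39 of CACNA1D at chr3:53784155-53784326. Capitals again mark the overlap of the peaks, on the plus strand.
KCNH1 (82-kDa ChAT, vehicle and Aβ): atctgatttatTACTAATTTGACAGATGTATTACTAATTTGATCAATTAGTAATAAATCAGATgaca
CACNA1D (82-kDa ChAT vehicle, SATB1 Aβ): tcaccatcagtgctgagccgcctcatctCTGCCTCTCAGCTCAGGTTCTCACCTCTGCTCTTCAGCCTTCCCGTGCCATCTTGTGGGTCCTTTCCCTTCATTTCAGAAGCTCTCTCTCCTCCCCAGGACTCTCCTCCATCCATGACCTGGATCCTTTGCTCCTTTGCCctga

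82-kDa ChAT had 51 peaks in 26 channel genes after vehicle and 37 peaks in 25 channel genes after Aβ. SATB1 had 16 peaks in 12 channel genes after vehicle and 24 peaks in 21 channel genes after Aβ. The genes with a peak were 20.3%, 19.5%, 9.38% and 16.4% of the channel genes in these 4 lists, and 10.5%, 11.1%, 4.83% and 12% of all protein-coding genes. At least 1 peak in any list was found in 50 of the 128 channel genes, against 26.9% of all protein-coding genes. These shares do not allow for length. With peaks spread evenly over the length of protein-coding genes, the numbers of channel genes expected to hold a peak were 28.4, 28.1, 13.4 and 28.7. From the shares of other protein-coding genes in the same length classes they were 24.5, 26.1, 12.7 and 25.7.

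The expected number of peaks was taken as the number of peaks per nt over the bodies of all protein-coding genes in the same list, multiplied by the summed length of the channel genes. After vehicle treatment the 51 peaks of 82-kDa ChAT were 1.23 times the 41.5 expected (exact Poisson 95% interval 0.915 to 1.62), and after Aβ the 37 peaks were 0.904 times the 40.9 expected (0.636 to 1.25). The 16 peaks of SATB1 after vehicle were 1.01 times the 15.8 expected (0.579 to 1.65). Only the list of SATB1 after Aβ had an interval that did not reach 1, with 24 peaks where 42.1 were expected, a ratio of 0.570 (0.365 to 0.848). Without peaks that matched the Alu element, a short interspersed repeat found throughout human introns, that ratio was 1.14 (0.521 to 2.16), and without multi-copy peaks, in which over 50% of the 51-nt stretches occur more than once in hg38, it was 0.521 (0.238 to 0.989). For 82-kDa ChAT after vehicle the ratio without multi-copy peaks was 1.38, with an interval wholly above 1 (1.02 to 1.83). At every other setting tried for that list the interval included 1. Without Alu-matching peaks the ratio was 1.28 (0.947 to 1.69), and at the rate over the whole genome it was 1.01 (0.754 to 1.33).

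As a share of their list, channel gene peaks were 0.684% for 82-kDa ChAT after vehicle (exact Clopper-Pearson 95% interval 0.509 to 0.898) and 0.583% after Aβ (0.411 to 0.803). For SATB1 they were 0.555% (0.317 to 0.899) and 0.410% (0.263 to 0.609). The difference between treatments, Aβ minus vehicle, was -0.101 percentage points for 82-kDa ChAT (95% interval -0.365 to 0.164) and -0.145 for SATB1 (-0.462 to 0.172). With 1 library on each side no test was made, and the intervals of both differences include 0.

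**Figure D1:**
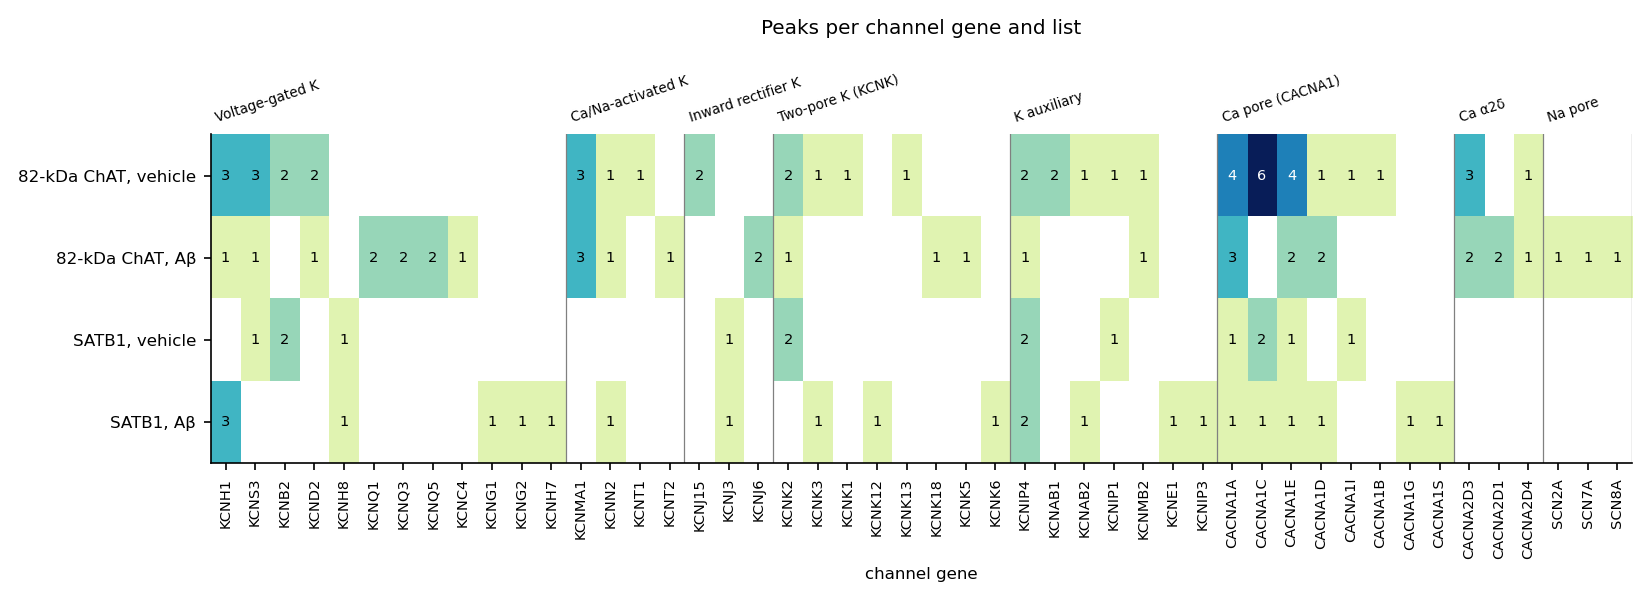
Number of peaks in each of 48 of the 50 channel genes with at least 1 peak (columns, grouped by channel class) for the 4 combinations of protein and treatment (rows); empty cells hold no peak. CACNA1C had 6 peaks of 82-kDa ChAT after vehicle and none after Aβ, and the 3 sodium pore genes shown had peaks of 82-kDa ChAT after Aβ alone.

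The genes of the calcium pores (CACNA1) had the most peaks for their length of the classes with voltage-dependent gating. Their 10 genes hold 2737 kb, in which 19.4 peaks were expected over the 4 lists and 35 were found (ratio 1.81, 1.26 to 2.52). Such sums over lists count a region held in more than 1 list once for each list. With overlapping peaks counted as 1 region, in these genes and in the background, there were 29 regions where 18.4 were expected (1.58, 1.06 to 2.26). After vehicle, 82-kDa ChAT had 17 peaks in these genes where 5.72 were expected (2.97, 1.73 to 4.76), and SATB1 had 5 where 2.18 were expected (2.30, 0.745 to 5.36). After Aβ, 82-kDa ChAT had 7 (1.24, 0.498 to 2.55) and SATB1 had 6 (1.03, 0.379 to 2.25). Of 40 ratios by class and list, that for 82-kDa ChAT after vehicle in the calcium pore genes was the only one whose interval lay wholly above 1.

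In CACNA1C, the pore of an L-type calcium channel of heart and neurons, there were 6 peaks of 82-kDa ChAT after vehicle, 0 after Aβ, 2 of SATB1 after vehicle and 1 after Aβ. The 6 peaks lay in introns 3, 9 and 28 and include the highest score of any channel gene peak, 225.39, in the intron 9 repeat shown above. The SATB1 peak there covered 505 nt with a score of 97.63, and a further ChAT peak of 161 nt followed in the same repeat at chr12:2520754-2520914. In intron 28, ChAT peaks at chr12:2610943-2611346 and chr12:2611394-2611551 lay in sequence with a 65-nt unit, and SATB1 overlapped the second of them. Thus 4 of the 6 ChAT peaks in this gene were tandem repeats by the measure used here (at least 70% of bases equal to the base 1 period further on). The SATB1 peak after Aβ lay upstream of the MANE Select start and matched the Alu element. After Aβ, 15 of the 24 SATB1 peaks in channel genes matched it.

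CACNA1A, the pore of the P/Q-type channel that triggers transmitter release, had 4 peaks of 82-kDa ChAT after vehicle, 3 after Aβ, and 1 of SATB1 after each treatment. The 9 peaks were 2.98 times the 3.02 expected from its 427 kb (1.36 to 5.66), the highest number relative to length among the genes with 4 or more peaks after KCNK2. After vehicle the ChAT peaks lay in introns 3, 24 and 31 and upstream of the MANE Select start, and the SATB1 peak shared the intron 3 region. After Aβ, ChAT held 2 other places in intron 3, the nearest 6.76 kb from a vehicle peak, and a run of short repeats upstream of the MANE Select start. Both intron 3 peaks after Aβ and 2 of the vehicle peaks, in introns 3 and 24, matched the Alu element, and these were the only 4 Alu-matching ChAT peaks in channel genes. No region of CACNA1A was held under both treatments.

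CACNA1E, the pore of the R-type channel, had 4, 2, 1 and 1 peaks in the lists of ChAT after vehicle, ChAT after Aβ, SATB1 after vehicle and SATB1 after Aβ, a sum of 8 where 3.50 were expected (2.28, 0.986 to 4.50). Here ChAT and SATB1 peaks after vehicle coincided almost exactly, from chr1:181776326-181776445 and chr1:181776325-181776440, with scores of 53.93 and 66.88. That region is at an exon of a coding transcript and within 2000 nt of the start of one. The ChAT peaks after Aβ lay 12.2 kb or more away, in introns 43 and 44.

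CACNA1D, a second L-type pore, had 1 peak of ChAT after vehicle, 2 after Aβ and 1 of SATB1 after Aβ, near the 3.43 expected in sum. The T-type pore CACNA1I had 1 peak of each protein after vehicle, in the same region of intron 1, which is made of short repeats with TCCAT. The remaining pore genes with a peak had 1 each: CACNA1B (N-type) for ChAT after vehicle, and CACNA1G (T-type) and CACNA1S (skeletal muscle L-type) for SATB1 after Aβ. CACNA1F and CACNA1H had none. All 5 SATB1 peaks after vehicle in calcium pore genes overlapped a ChAT peak of the same treatment. Over all channel genes 43.8% of SATB1 peaks after vehicle did, and over all protein-coding genes 24.0%. The shared regions in CACNA1C and CACNA1I lay in repeated sequence, and the number of peaks is too small to set these genes apart.

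For 82-kDa ChAT after vehicle in calcium pore genes the interval stayed above 1 when either CACNA1C or CACNA1A was left out. This class and list were singled out from 40 ratios, among which an interval can lie above 1 by counting error alone. The recounts here use the same peaks, so they cannot decide that. Without CACNA1C there were 11 peaks where 4.20 were expected (2.62, 1.31 to 4.68), without CACNA1A 13 (2.69, 1.43 to 4.60), and without both 7 where 3.31 were expected (2.12, 0.850 to 4.36), an interval that reaches 1. With tandem-repeat peaks left out of members and background alike there were 11 where 4.49 were expected (2.45, 1.22 to 4.38), and with peaks less than 1000 nt apart counted once there were 15 (2.75, 1.54 to 4.53). At the rate of each gene's own chromosome the ratio was 2.74 (1.59 to 4.38).

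**Figure D2:**
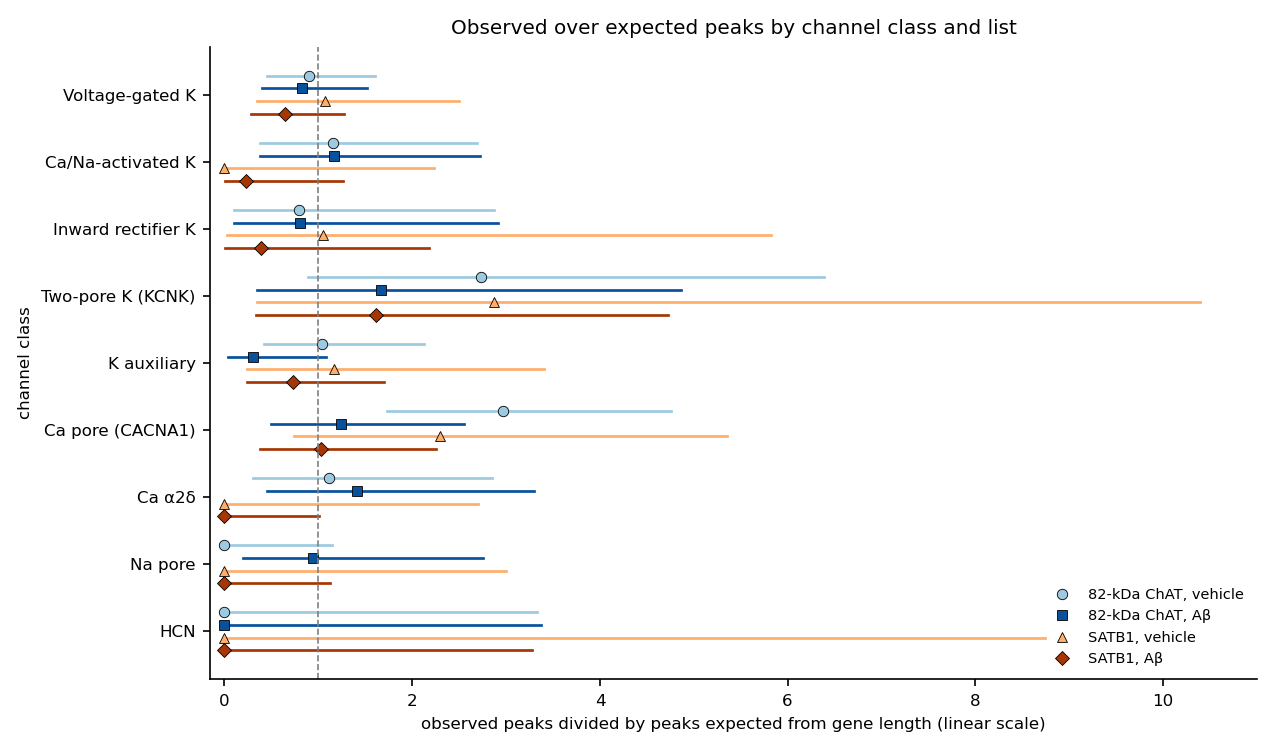
Observed peaks divided by the number expected from gene length, on a linear axis, for each channel class (rows, without the sodium β genes, whose expected number was 0.491 in sum) and each list (colours and symbols); lines are exact Poisson 95% intervals and the dashed line marks 1. The calcium pores after vehicle for 82-kDa ChAT sit at 2.97, with an interval wholly above 1.

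The α2δ genes, whose products bind calcium pores on the outer face of the membrane and carry them to the surface, include the second longest channel gene. This gene, CACNA2D3 (952 kb), had 3 peaks of 82-kDa ChAT after vehicle and 2 after Aβ, CACNA2D1 had 2 after Aβ, and CACNA2D4 had 1 after each treatment. The class sum was 9 peaks where 12.1 were expected (0.741, 0.339 to 1.41), and all 9 belonged to ChAT. SATB1 had 0 where 1.37 and 3.65 were expected after vehicle and Aβ, and the intervals of both ratios include 1 (upper limits 2.70 and 1.01).

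The sodium pore genes were nearly free of peaks. The 10 genes hold 1543 kb, where 10.9 peaks were expected over the 4 lists, and 3 were found (0.275, 0.0567 to 0.804). All 3 were of 82-kDa ChAT after Aβ: in intron 25 of SCN2A, a channel of central axons (chr2:165384464-165384596, score 67.07), upstream of the MANE Select start of SCN7A, a sodium-sensing relative (chr2:166529452-166529584, 72.70), and in intron 1 of SCN8A, which serves the axon initial segment and the nodes of Ranvier (chr12:51625266-51625405, 56.12). In that list 3.18 were expected, so the number there was close to length. In the other 3 lists there were 0 where 3.23, 1.23 and 3.27 were expected, and none of those 3 intervals lay wholly below 1. The 4 sodium β genes, which encode small adhesion-like partners of the pores, had 0 peaks, with 0.491 expected.

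The voltage-gated potassium pores, the largest class with 40 genes, had 34 peaks in 14 genes where 41.4 peaks were expected (0.821, 0.568 to 1.15). KCNH1, an ether-à-go-go channel, led with 3 peaks of ChAT after vehicle, 1 after Aβ, 0 of SATB1 after vehicle and 3 after Aβ, 7 in sum where 3.23 were expected (2.16, 0.870 to 4.46). Its intron 3 region was the only channel region in which ChAT had overlapping peaks after both treatments. The vehicle peak of 67 nt (score 82.56) contained the whole Aβ peak of 52 nt (score 96.96). As the printed sequence shows, the stretch TACTAATTTGA occurs in it in more than 1 copy.

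KCNS3, which encodes a silent subunit that alters KCNB channels, had 3, 1, 1 and 0 peaks in the same order of lists. All 5 lay beyond the end of its MANE Select transcript since its GENCODE body, 484 kb long, runs far past that end. KCNB2, a delayed rectifier, had 2 peaks of ChAT and 2 of SATB1 after vehicle and 0 after Aβ, and none of its peaks overlapped. KCND2, an A-type pore, had 2 peaks of ChAT after vehicle and 1 after Aβ, all in intron 1. KCNQ1, KCNQ3 and KCNQ5, whose products carry slow cardiac and epithelial currents or the M-current of neurons, each had 2 peaks of ChAT after Aβ and no other.

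The remaining genes of this class had few peaks. KCNC4 had 1 peak of ChAT after Aβ that carried the highest score of that list's channel peaks, 118.57, in only 52 nt. KCNH8 had 1 peak of SATB1 after each treatment, 14.9 kb apart, and KCNG1, KCNG2 and KCNH7 had 1 of SATB1 after Aβ.

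Among channels opened by calcium or sodium, KCNMA1, the large-conductance BK pore and the third longest channel gene (769 kb), had 3 peaks of ChAT after each treatment and none of SATB1, near the 5.44 expected in sum. KCNN2, a small-conductance SK pore, had 1 peak in each list but that of SATB1 after vehicle. KCNT1 and KCNT2, sodium-activated pores, had 1 peak of ChAT after vehicle and after Aβ respectively. The class, formed by the symbols KCNMA, KCNN, KCNT and KCNU and not by gating, had 11 peaks where 14.7 were expected (0.750, 0.374 to 1.34). The inward rectifiers had 6 where 8.51 were expected (0.705, 0.259 to 1.54), in KCNJ15 (2 of ChAT after vehicle), KCNJ6 (2 of ChAT after Aβ) and KCNJ3 (1 of SATB1 after each treatment). KCNJ3 and KCNJ6 encode subunits of the G-protein-gated channel.

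The two-pore-domain genes (KCNK), whose products carry background potassium current, had 13 peaks in 8 of 15 genes where 6.18 peaks were expected (2.10, 1.12 to 3.60). By list the numbers were 5, 3, 2 and 3, with 1.83, 1.80, 0.695 and 1.85 expected, and each list's own interval included 1. KCNK1 and KCNK2 lie on the long arm of chromosome 1, where peaks were denser than over all chromosomes in every list. The class was not recounted at that arm's rate or without KCNK2. KCNK2, a mechanically gated channel, had 2 peaks of ChAT after vehicle, 1 after Aβ and 2 of SATB1 after vehicle, 5 in sum where 1.64 were expected (3.06, 0.992 to 7.13). In its shared region ChAT and SATB1 had scores of 112.90 and 112.44, the highest SATB1 score in a channel gene after vehicle. KCNK3, an acid-sensitive channel, had 1 peak of ChAT after vehicle in exon 2 outside the coding sequence, and 1 of SATB1 after Aβ in intron 1 that matched Alu. KCNK6 had an Alu-matching SATB1 peak after Aβ in exon 3. KCNK1 had 1 peak of ChAT after vehicle within 2000 nt of a coding transcript start, and KCNK13 1 more. KCNK5 and KCNK18 had 1 of ChAT after Aβ, and KCNK12 1 of SATB1 after Aβ with the highest score in its list's channel genes, 111.44.

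The auxiliary potassium subunits had 17 peaks where 22.9 were expected (0.742, 0.432 to 1.19). KCNIP4, a calcium-binding partner of the KCND pores and the longest channel gene (1220 kb), had 2, 1, 2 and 2 peaks, all in intron 1, where 8.63 were expected in sum. It was 1 of 3 channel genes with a peak in all 4 lists, with CACNA1A and CACNA1E, and no peak of it overlapped another. KCNAB1 had 2 peaks of ChAT after vehicle and KCNAB2 1, the latter 103 nt from a coding transcript start, while a tandem-repeat peak of SATB1 lay in KCNAB2 after Aβ. KCNIP1 had 1 peak of each protein after vehicle, 6.76 kb apart. KCNMB2, a BK partner, had 1 of ChAT after each treatment, 305 kb apart. KCNE1 and KCNIP3 had 1 of SATB1 after Aβ, both matching Alu.

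The 4 HCN genes, which encode the pacemaker channels opened by hyperpolarisation, had 0 peaks where 3.75 were expected (ratio 0, upper limit 0.984). With overlapping peaks of the background counted once the upper limit was 1.03. Other channel genes over 200 kb without a peak included KCNH5 (403 kb), KCND3 (219 kb) and SCN11A (206 kb). KCNH5, an ether-à-go-go pore, was expected to hold 2.85 peaks over the 4 lists.

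**Figure D3:**
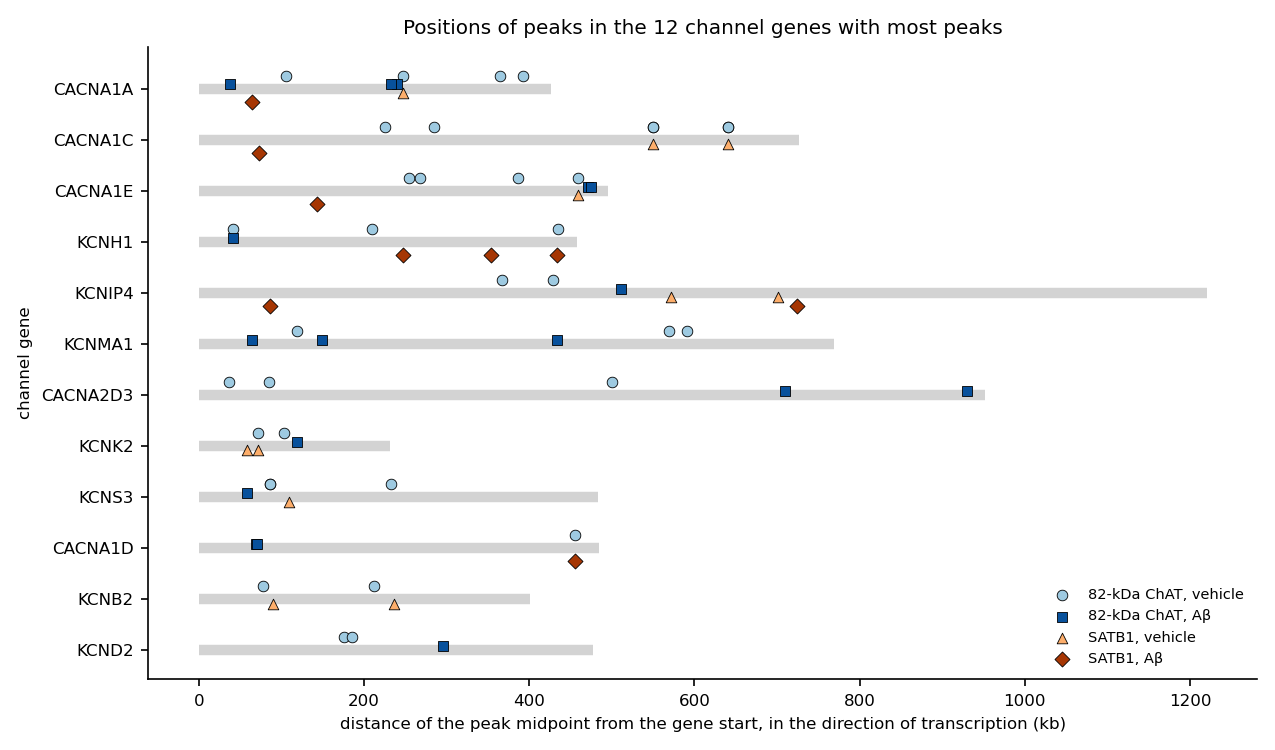
Positions of peak midpoints in the 12 channel genes with most peaks, in kb from the gene start in the direction of transcription; grey bars span the gene body, and symbols mark the protein and treatment. Vehicle peaks of 82-kDa ChAT and SATB1 stand at the same places in CACNA1A, CACNA1C, CACNA1E and KCNK2, and no peaks of both proteins coincide after Aβ.

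Regions held by both proteins were counted within each treatment. After vehicle, 7 of 51 ChAT peaks in channel genes (13.7%, exact 95% interval 5.70 to 26.3) and 7 of 16 SATB1 peaks (43.8%, 19.8 to 70.1) overlapped a peak of the other protein, against 9.31% and 24.0% of the peaks in all protein-coding genes. After Aβ, 0 of 37 ChAT peaks (upper limit 9.49%) and 0 of 24 SATB1 peaks (upper limit 14.2%) did, against 2.90% and 2.82% in all protein-coding genes. Both shares in channel genes had intervals that include the value for all protein-coding genes. Both proteins had the same input sample within a treatment, and the part of that sample in the shared regions was not tested. At the level of genes, 10 of the 12 channel genes with a SATB1 peak after vehicle (83.3%) also had a ChAT peak after vehicle, against 49.5% of all protein-coding genes with a SATB1 peak. From other genes of the same length classes 7.29 channel genes with both were expected.

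Between treatments, ChAT had peaks in 13 channel genes under both, which was 50% of its genes after vehicle and 52% after Aβ. Over all protein-coding genes these shares were 31.2% and 29.6%, and from other genes of the same length classes 10.9 channel genes were expected, near the number found. Overlapping peaks of ChAT were found in KCNH1 alone (1 of 51 vehicle peaks, 1.96%, 0.0496 to 10.4, against 2.89% in all protein-coding genes). In the other 12 genes the nearest peaks of the 2 treatments were 6.76 to 385 kb apart, with a median of 59.4 kb. SATB1 had peaks in 6 channel genes under both treatments, where 5.49 were expected from length, and their nearest peaks were 14.9 to 476 kb apart. None of the 16 vehicle peaks of SATB1 in channel genes overlapped a SATB1 peak after Aβ (upper limit 20.6%), and in all protein-coding genes 0.770% did, so that a number near 0 was expected.

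The SATB1 peaks after Aβ were also counted by repeat. The Alu copy used for matching was taken at a peak of this same list, outside the channel genes. The channel genes held 207.6 Alu copies per Mb, while all protein-coding gene bodies held 387.8. Of the 24 peaks, 15 matched Alu (62.5%, 40.6 to 81.2), against 81.2% of the peaks of the same list in all protein-coding genes. From gene length 34.2 Alu-matching peaks were expected (ratio 0.439, 0.245 to 0.723). From the number of Alu copies in the channel genes 18.3 were expected (0.819, 0.459 to 1.35). The 9 peaks that did not match Alu were 1.14 times the 7.90 expected from length (0.521 to 2.16). The part of Alu content in the low number of SATB1 peaks after Aβ was not tested. In the other lists 2, 2 and 0 of the channel gene peaks matched Alu.

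**Figure D4:**
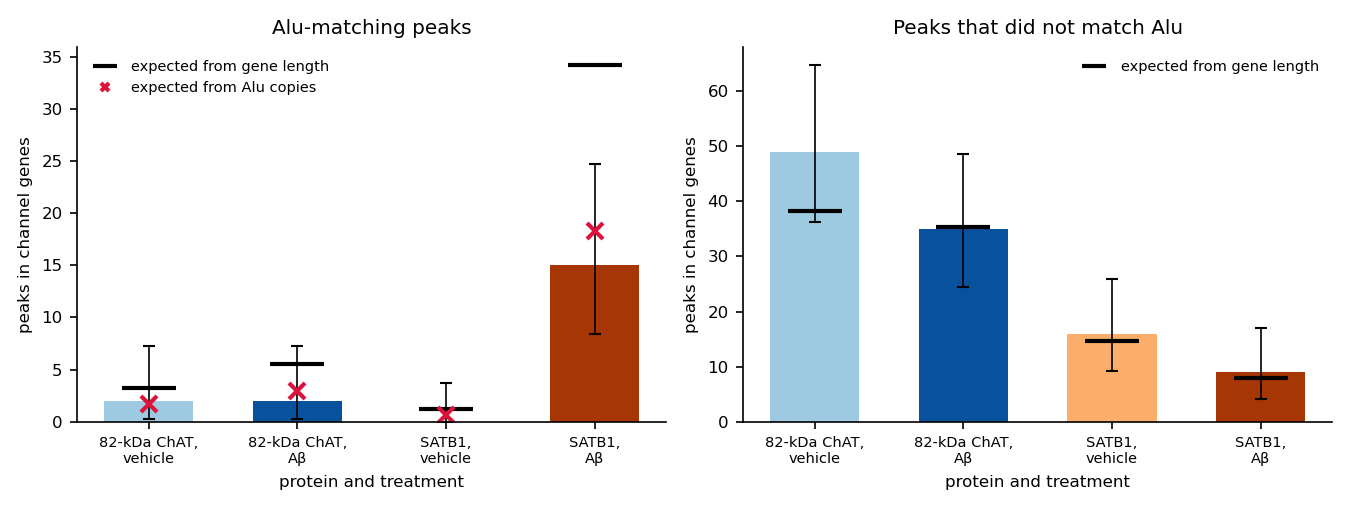
Channel gene peaks that matched the Alu element (left) and that did not (right) for the 4 lists, as bars from 0 with exact Poisson 95% intervals; black dashes are the numbers expected from gene length and red crosses those expected from Alu copies. For SATB1 after Aβ, 15 Alu-matching peaks lie below the 34.2 expected from length and near the 18.3 expected from copies.

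Tandem repeats made up another share of the peaks. By the measure above they were 13 of 51 ChAT peaks after vehicle (25.5%, 14.3 to 39.6) and 4 of 37 after Aβ (10.8%, 3.03 to 25.4), against 21.5% and 7.02% of peaks in all protein-coding genes. For SATB1 they were 4 of 16 (25.0%, 7.27 to 52.4) and 3 of 24 (12.5%, 2.66 to 32.4), against 14.6% and 3.54%. Each of the 4 intervals includes the share for all protein-coding genes. Runs of the pentamer AATGG or its complement CCATT occurred in KCNIP4 (ChAT after vehicle) and KCNMA1 (ChAT after Aβ), which had periods of 5 nt with 96.5% and 97.9% identity.

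Position within the genes followed their structure. Peaks lay in introns of the MANE Select transcript in 42 of 51, 28 of 37, 13 of 16 and 18 of 24 cases, and in intron 1 in 10, 12, 3 and 4, while intron 1 makes up 28.3% of the summed channel gene length. An annotated exon of any transcript was met by 2, 0, 1 and 2 peaks, with exons making up 5.20% of the length. A coding transcript start lay within 2000 nt of 3, 1, 1 and 1 peaks, among them those in KCNK1, KCNAB2 and CACNA1E. Channel gene peaks were short: in each list the median was between 118 and 140 nt, and their median scores (70.69, 66.26, 65.59 and 65.46) were near those of the whole lists (66.57, 63.57, 65.85 and 66.43). A score of this kind grows by 10 with each factor of 10 by which the peak caller's p-value is smaller.

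TCCAT or TCCCAT on either strand was present in 19 of 51 ChAT peaks after vehicle (37.3%) and 11 of 37 after Aβ (29.7%), and in 31.3% and 28.1% of the peaks in all protein-coding genes. For SATB1 the numbers were 6 of 16 (37.5%) and 4 of 24 (16.7%), against 34.6% and 16.6%. A pattern of 3 A or T bases, a C and 3 more A or T bases, which is a sequence form linked to SATB1, was present in 52.9%, 64.9%, 50% and 62.5% of channel gene peaks and in 59.2%, 62.4%, 64.1% and 69.0% of peaks in protein-coding genes.

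The share of channel genes with a peak went with their length. None of the 19 channel genes under 10 kb had one, 5 of 40 from 10 to 50 kb did (12.5%), and all 8 over 500 kb did, against 3.50%, 18.1% and 96.8% of other protein-coding genes of the same lengths. From 50 to 100 kb the share was higher than in other genes (10 of 15, 66.7%, exact 95% interval 38.4 to 88.2, against 39.5%), though the interval includes the other genes' value. From 100 to 200 kb it was lower (8 of 23, 34.8%, 16.4 to 57.3, against 58.6%), with an interval just below that value, and from 200 to 500 kb it was 19 of 23 (82.6%) against 79.6%. Summed over bins, 53.4 channel genes were expected to have a peak and 50 did.

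**Figure D5:**
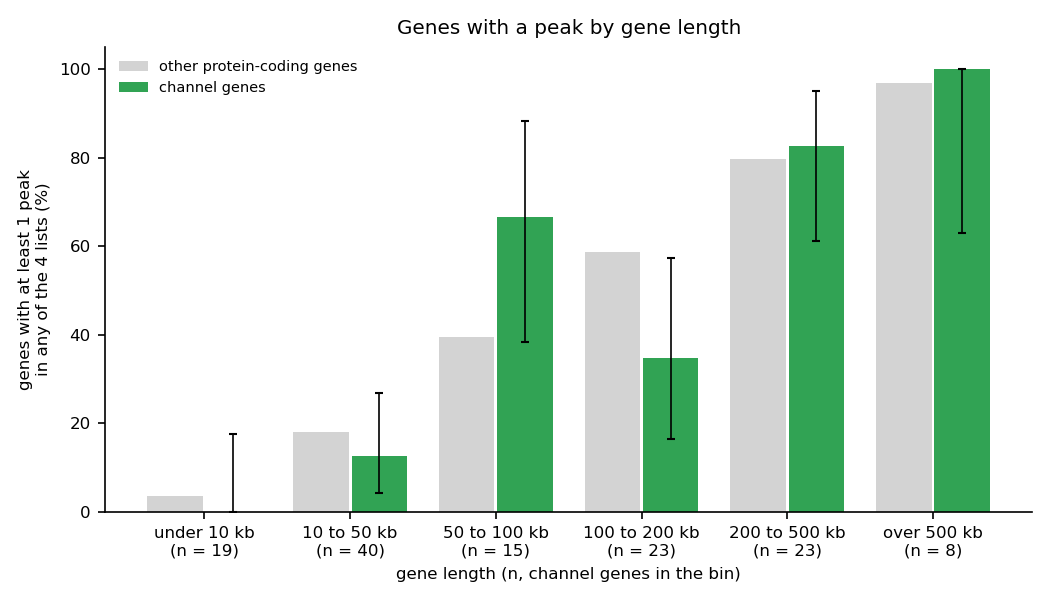
Share of genes with at least 1 peak in any of the 4 lists (y axis, %) by gene length (x axis), for channel genes (green, with exact Clopper-Pearson 95% intervals) and other protein-coding genes (grey). The channel genes lie near the others in most bins, with 66.7% against 39.5% at 50 to 100 kb and 34.8% against 58.6% at 100 to 200 kb.

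CACNA1E, KCNH1 and KCNK2, which had 8, 7 and 5 peaks, lie on the long arm of chromosome 1, where SH-SY5Y cells are known to carry extra copies. Peaks per Mb of protein-coding gene bodies there were 3.55, 3.17, 1.26 and 3.13 in the 4 lists, and 2.09, 2.06, 0.796 and 2.12 over all chromosomes. The 10 channel genes of this arm had 10, 5, 3 and 5 peaks where 6.97, 6.24, 2.48 and 6.16 were expected at the arm's own rate and 4.11, 4.05, 1.56 and 4.17 at the rate of all chromosomes. The part of copy number in these counts was not tested.

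Beyond the channels, 30 genes that encode their partners were counted: calcium β and γ subunits, the KCND partners DPP6 and DPP10, the sodium leak channel and its complex, intracellular fibroblast growth factors, ankyrin and others. They had 23 and 16 peaks of ChAT where 17.5 and 17.2 were expected (1.32, 0.835 to 1.98, and 0.928, 0.531 to 1.51), and 7 and 8 of SATB1 where 6.65 and 17.7 were expected (1.05, 0.423 to 2.17, and 0.451, 0.195 to 0.889). The order of the 4 ratios was the one seen in the channel genes, but both sets were counted in the same 4 lists. In both sets all intervals but that of SATB1 after Aβ include 1, so the order of those ratios is not resolved. In all, 19 of the 30 had a peak, where 15.5 were expected from other genes of the same length classes. CACNG7, a γ subunit of 34.7 kb, had 4 peaks of ChAT after vehicle where 0.245 were expected over all lists, and DPP6 had 6, 5, 2 and 0.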

How the data were processed

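Chromatin of SH-SY5Y cells was sequenced after immunoprecipitation of 82-kDa ChAT or SATB1. Per the study's methods the authors mapped reads to hg38 with BWA, called peaks with MACS in each library alone (p below 1e-05) and removed those found in the input. The deposited value of each peak is a score derived from the p-value of the caller. Versions of these tools are not given in the sources used here. The study's methods give only a range of read numbers over its samples. The depth of each library is unknown from the files, and libraries were not equalised.

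Peaks on chromosomes 1 to 22, X and Y (7460, 6345, 2884 and 5857) were assigned to each GENCODE 44 gene body they touched by at least 1 nt. KCNIP1 overlaps KCNMB1, and SCN2A overlaps SCN3A. Intervals are exact Poisson (counts) or Clopper-Pearson (shares), and normal approximations for differences of shares. They cover counting error only. Alu matches came from blastn 2.17.0 against 1 genomic Alu copy (e-value 1e-05 for peaks, bit score of at least 100 for copies in gene bodies). That copy was taken at a SATB1 peak after Aβ outside the channel genes, so it was not independent of that list. Tandem periods were tried up to 150 nt. Counting was tested on simulated peaks. Sequences were read with pysam 0.24.0.

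The genes, classes and partner genes were chosen with earlier results of these data known. Genes were named if they had a peak in 3 or 4 lists, overlapping peaks of different lists, one of the highest scores, a peak in an exon or within 2000 nt of a start, were among the 12 with most peaks or the 5 longest, or exceeded 200 kb without a peak. The others with a peak were named after their values were seen. Some genes and sequences are not reported here.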

Additional observations from a re-analysis of the deposited data

How the results depend on the processing

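For each list, the share of channel gene peaks, the number of channel genes with a peak and the ratio to the expected number were recomputed under other choices, of which leaving out tandem-repeat peaks, counting peaks within 1000 nt of the peak before them once and using the span of the MANE Select transcript were chosen after seeing the data. So was counting overlapping peaks of different lists as 1 region, for the sums by class. Of 138 recomputed values 133 stayed within the interval of the value as reported, or within 1.5 times it for genes, and 5 moved, all for SATB1 after Aβ. In that list the 21 genes became 11 among the better-scoring peaks, from the list's median upwards, 9 without Alu-matching peaks and 9 without multi-copy peaks. Without Alu-matching peaks the share became 0.610% and the ratio 1.14 (0.521 to 2.16). That setting removed 62.5% of the channel gene peaks and 81.2% of those in all protein-coding genes. The ratio stayed below 1 without multi-copy peaks (0.521, 0.238 to 0.989) and among the better-scoring peaks (0.503, 0.251 to 0.899). For 82-kDa ChAT after vehicle the ratio was 1.38 (1.02 to 1.83) without multi-copy peaks and 1.01 at the rate over the whole genome. Of the ratios, 6 were on the other side of 1 from the value as reported. No paired analysis was possible because each group was 1 library and no test was made. No library could be left out for the same reason.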
